A study of Mus musculus with 18 samples.

Results

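The interferon response and antigen presentation genes were followed in *Atrx*-mutant C3H/10T1/2 cells, a mouse line of mesenchymal progenitors. The group held 45 of the 24100 genes counted in each kind of library. Members were named from the pathway and matched to the count tables by Entrez identifier. They comprised 34 antiviral effector genes, 5 signalling genes (*Irf1*, *Irf7*, *Irf9*, *Stat2* and *Usp18*) and 6 MHC class I genes (*Psmb8*, *Psmb9*, *Tap1*, *B2m*, *H2-K1* and *H2-D1*). RNA came from 3 lines of the same cells. Wild type (WT) cells carried the Cas9 vector with no guide, and the knockout (KO) lines sg5 (clone G7) and sg6 (clone B10) had each received 1 guide RNA against *Atrx*, whose product is a chromatin remodeller. Each line was sequenced after polyA selection and, separately, after rRNA depletion, with 3 libraries of each kind, 18 in all. Each KO line is a single clone, so the effect of a guide and that of the clone carrying it cannot be told apart. WT is also 1 line, so a difference from WT found in both clones cannot be told apart from a trait of that WT line. Nothing in the labels says that the 3 libraries of a line came from separate cultures, and p-values then measure only the spread between these libraries, which may be technical.

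Interferons secreted by infected or stressed cells bind surface receptors and, through JAK kinases, activate a complex that holds STAT2 and IRF9. This complex binds the interferon-stimulated response element (ISRE) before antiviral genes, whose products degrade viral RNA, block translation or trap viral particles. Interferon signalling also raises IRF1, which with other regulators drives the immunoproteasome, the TAP peptide transporter and the MHC class I chains that show peptides to T cells. Many of these genes keep a low basal level in cells that have met no virus.

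Totals ran from 27544833 to 235346363 counts per polyA library, with the sg5 libraries deepest (from 161036799), and from 20135336 to 33187136 per rRNA-depleted library. *Atrx* was lower in each clone, changing on the log2 scale by -1.24 and -1.20 in polyA and by -1.39 and -1.31 in rRNA-depleted libraries. Each of 10 mesenchymal markers was found above 3 counts in each line. In polyA libraries *Eng* was higher in both clones (2.17 ± 0.11 and 1.73 ± 0.11 on the log2 scale), *Thy1* was lower in sg5 (-1.73 ± 0.19) and higher in sg6 (7.03 ± 0.19), *Ly6a*, which interferon can also induce, was higher in sg6 (1.21 ± 0.28, a call that ended without WT library 3), and the other 7 were not called against WT. Their summed CPM in polyA libraries was 17193 to 19093 for WT, with sg5 at 18767 to 19600 and sg6 at 23566 to 26241. In rRNA-depleted libraries the sums were 4105 to 5254 CPM for WT, 6351 to 8660 CPM for sg5 and 6941 to 8705 CPM for sg6. Of 11 immune cell markers, *Adgre1*, *Tyrobp* and *Cd3e* stayed at or below 3 counts in every library. The summed CPM of that list in polyA libraries ranged from 14.7 to 22.4 for WT, from 7.90 to 8.92 for sg5 and from 8.92 to 11.3 for sg6. Without *Lyz2*, a lysozyme gene of myeloid cells that was lower in both clones in polyA, these ranges were 5.62 to 7.12, 5.08 to 5.94 and 5.29 to 6.06 CPM. The macrophage receptor gene *Csf1r* was lower in polyA sg5 (-1.63 ± 0.35), a call that ended when counts were thinned to the smallest library. In rRNA-depleted libraries the sums were 14.7 to 29.6, 7.0 to 8.41 and 4.08 to 11.5 CPM, and 1.98 to 2.50, 1.34 to 2.42 and 1.71 to 2.20 CPM without *Lyz2*. There *Lyz2* and *Cd68*, the only listed markers tested, were lower in each KO library than in any WT library, as were 8.61% of all genes. Of these 2 markers, 0 were called lower in sg5 (4.31% of all genes) and 1, *Lyz2*, in sg6 (3.59%). The part of these marker differences in the results below was not tested. In such bulk RNA, fewer cells of a type and less RNA per cell cannot be told apart.

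In each comparison of a clone with WT, 15 to 24 members were lower in KO cells and at most 1 was higher. Levels are counts per 1000000 library counts (CPM), with library sizes scaled by TMM factors, and a gene was called lower or higher when its log2 fold change passed 1 in size with an adjusted p below 0.05 in edgeR's quasi-likelihood test. In polyA libraries 44 members passed the filter on low counts, all but *Cmpk2*. Of these, 15 were lower in sg5, where 6.96% of all genes tested were, and 24 were lower in sg6, where 7.54% were. The number lower in both clones was 15, against 5.48% of all genes. Only *Bst2* was higher in sg5 (3.18% of all genes), and no member was higher in sg6 (3.64% of all genes; 2 members at an unadjusted p below 0.05, and 0 by DESeq2). In rRNA-depleted libraries 39 members passed the filter and *Oas3*, *Oasl1*, *Oasl2*, *Rsad2*, *Cmpk2* and *Cxcl10* did not. Here 16 were lower in sg5 (4.31% of all genes), 15 in sg6 (3.59%) and 13 in both (2.62%). No member was higher in sg5 (3.04% of all genes; 4 members at an unadjusted p below 0.05, and 1, *Bst2*, by DESeq2) or in sg6 (2.16% of all genes; 0 members at an unadjusted p below 0.05, and 0 by DESeq2). The comparisons of sg5 and of sg6 with WT share their WT libraries. With a block for the replicate number, 22 members were lower in rRNA-depleted sg6, the same 15 and *Gbp3*, *Igtp*, *Irf1*, *Mx2*, *Psmb9*, *Rtp4* and *Tap1*, and the polyA calls against WT were the same genes. The block also raised the number of all genes lower in rRNA-depleted sg6, from 477 to 598 of 13303.

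The libraries of the 6 groups also separated by value. Every KO library lay below every WT library for 21 of the 44 members tested in polyA, where 13.9% of all genes did so, and for 17 of the 39 in rRNA-depleted libraries, where 8.61% did. In the rRNA-depleted libraries *Mx1*, *Oas1a*, *Oas1g* and *Oas2* had under 10 counts in each KO library, so they passed the filter through WT. The filter scales with library size, so other members with low KO counts also passed with the help of WT. Among members lower in both clones these were *Isg15* (1 to 11 counts in KO libraries) and *Ifi44* (6 to 19) in rRNA-depleted libraries. In polyA they were *Oas1g* (0 to 11) and *Cxcl10* (1 to 25). The filter tilts such members towards a lower call. When 10 counts were asked of every library, 39 members remained in polyA, of which 12 were lower in both clones, and 27 remained in rRNA-depleted libraries, of which 6 were. Of all 13438 polyA genes left by this filter, 657 were lower in sg5 and 730 in sg6. Of 11816 genes left in rRNA-depleted libraries, 296 and 200 were, as were 10 and 7 of the 27 members. These counts of all genes are for single clones, and the share lower in both clones under this filter was not counted. In 9 members the call held in both clones and both kinds of library, a rule for which the share of all genes was not counted: *Isg15*, *Mx1*, *Oas1a*, *Oas1g*, *Oas2*, *Ifi203*, *Gbp2*, *Gbp7* and *Parp14*. Another 6 were lower in both clones in polyA alone (*Oasl2*, *Gbp3*, *Cxcl10*, *Irf1*, *Psmb9* and *Tap1*), of which *Oasl2* and *Cxcl10* were not testable in the other kind, and 4 in rRNA-depleted libraries alone (*Ifi204*, *Ifi44*, *Ifit1* and *Trim30a*). In 14 members tested in both kinds no comparison gave a lower call without the block: *Bst2*, *Ifi27*, *Ifi35*, *Ifit2*, *Ifit3*, *Ifit3b*, *Irgm1*, *Rtp4*, *Samhd1*, *Xaf1*, *Irf7*, *Irf9*, *Stat2* and *B2m*.

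**Figure D1:**
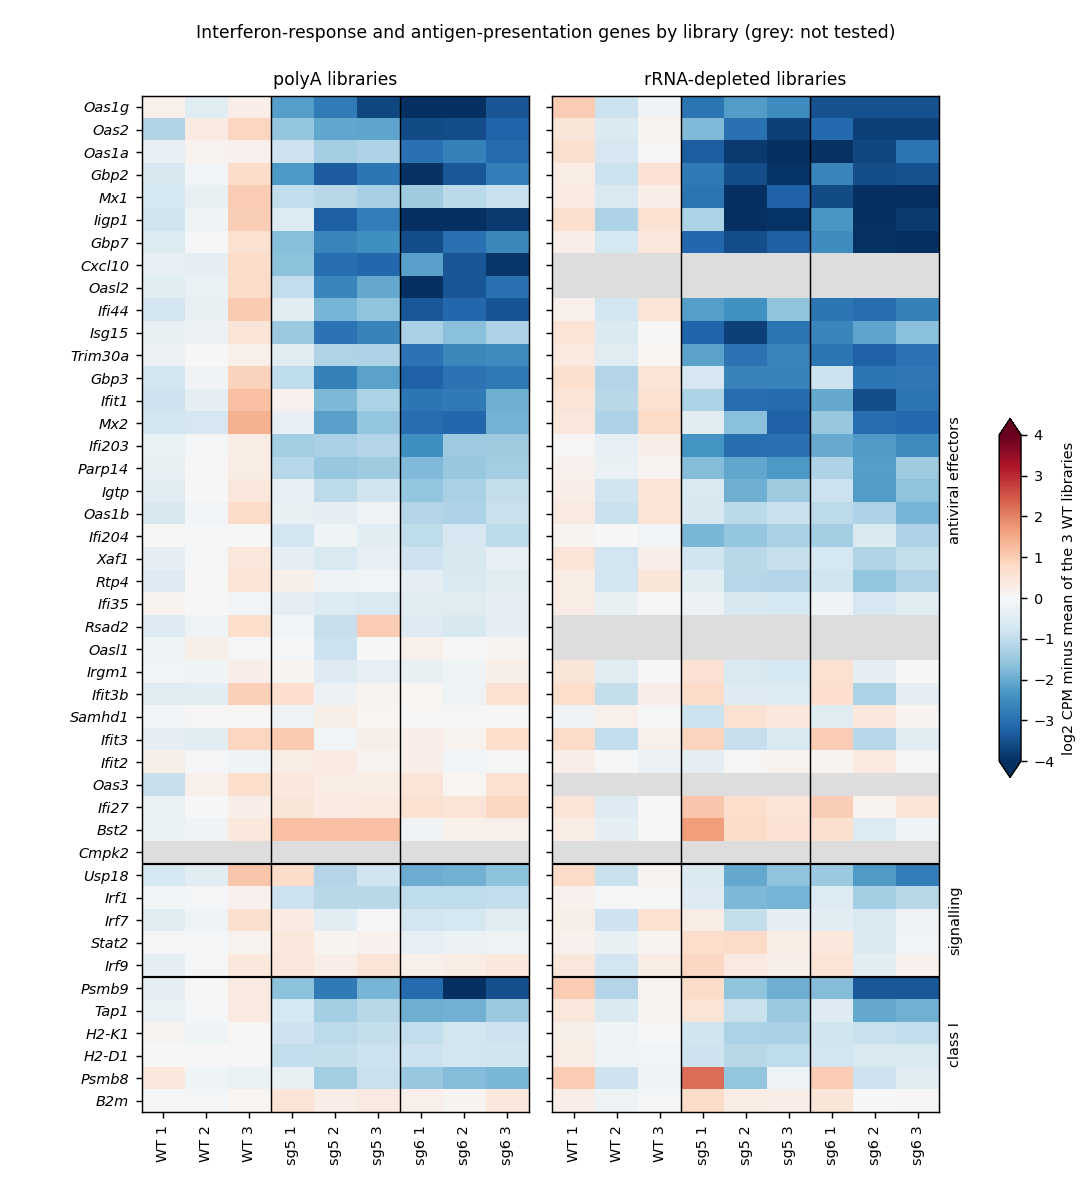
Heat map of log2 CPM relative to the WT mean of the same kind, with 1 row per member and 1 column per library, members ordered by role. Rows such as *Oas1g*, *Oas2*, *Oas1a* and *Gbp2* are below the WT mean in each KO library, and *Bst2*, *Ifi27* and *B2m* are above it in the sg5 libraries. The colour scale ends at 4 in either direction, and grey marks members not tested.

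Promoter sequence is shown for members that were lower in both clones and for some that were not, since the ISRE is the site through which these genes answer interferon. RefSeq windows on GRCm38.p6 from 250 bases before to 50 after the start site were held for 35 of the 45 members. The ISRE core was searched as GAAANNGAA and the interferon-gamma-activated site (GAS) as TTCNNNGAA, on both strands and with overlapping matches allowed. The core was found in 20 of 35 members (57.1%), against 9.76% of 27025 genes with a window and 8.77% of those tested in polyA. By role it was found in 18 of 25 effectors, 1 of 4 signalling genes (*Stat2*) and 1 of 6 class I genes (*B2m*). The GAS letters were found in 9 of 35 members (25.7%), against 9.55% of all genes. Capitals mark the core, or its reverse complement where it lies on the other strand, and adjacent cores share letters. *Isg15* (chr4:156200846-156200926, minus strand, -108 to -28 from the start site) holds 3 cores in 1 run, and *Oas1a* (chr5:120907526-120907575, minus strand, -50 to -1) holds 2. *Gbp2* (chr3:142620575-142620643, plus strand, -88 to -20) and *Gbp7* (chr3:142530254-142530322, plus strand, -82 to -14) each hold 1 on the other strand. *Ifit1* (chr19:34640750-34640843, plus strand, -139 to -46) and *Ifit3* (chr19:34583344-34583465, plus strand, -185 to -64) hold 3 each. *Bst2* (chr8:71537558-71537632, minus strand, -160 to -86) holds 2, *B2m* (chr2:122147518-122147586, plus strand, -169 to -101) holds 1 and *Tap1* (chr17:34187456-34187555, plus strand, -100 to -1) none. Each sequence reads from 5′ to 3′ along the gene.
Isg15: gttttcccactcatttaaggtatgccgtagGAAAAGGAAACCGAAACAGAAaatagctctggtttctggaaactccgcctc
Oas1a: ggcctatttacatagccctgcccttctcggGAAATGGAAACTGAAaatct
Gbp2: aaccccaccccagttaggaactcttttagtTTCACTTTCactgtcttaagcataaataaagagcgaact
Gbp7: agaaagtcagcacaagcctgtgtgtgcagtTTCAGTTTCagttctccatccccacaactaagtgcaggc
Ifit1: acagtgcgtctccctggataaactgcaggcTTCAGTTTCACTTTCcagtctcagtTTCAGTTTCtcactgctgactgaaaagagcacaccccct
Ifit3: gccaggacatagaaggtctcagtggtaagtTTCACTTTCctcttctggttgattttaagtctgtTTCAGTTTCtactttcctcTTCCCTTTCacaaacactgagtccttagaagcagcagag
Bst2: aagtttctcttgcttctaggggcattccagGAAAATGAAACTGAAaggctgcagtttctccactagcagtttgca
B2m: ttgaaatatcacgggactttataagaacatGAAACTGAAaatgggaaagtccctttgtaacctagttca
Tap1: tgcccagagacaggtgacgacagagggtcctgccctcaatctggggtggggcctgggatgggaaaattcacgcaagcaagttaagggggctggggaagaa

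The 48 bases before the *Oas1g* start site were the same as those of *Oas1a* at all 48 positions, and the 122 bases shown for *Ifit3* were the same as those of *Ifit3b*. Thus *Isg15*, *Oas1a*, *Gbp2* and *Gbp7*, lower in both clones in both kinds, carry cores, and so do *Ifit3* and *Ifit3b*, which were called in no comparison, and *Bst2*, which was higher in polyA sg5. Of members with a window, a core was found in 8 of 12 that were lower in both clones in polyA and in 12 of 22 tested members that were not. In rRNA-depleted libraries it was found in 9 of 9 and in 8 of 20. These letters describe the window and do not show that a factor was bound.

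*Isg15* and *Mx1* were lower in both clones in both kinds. *Isg15*, a ubiquitin-like protein joined to other proteins during infection, had 3.84, 3.99 and 6.67 CPM in WT, 1.64, 0.580 and 0.715 CPM in sg5 and 1.89, 1.45 and 1.99 CPM in sg6 libraries in the polyA libraries. In rRNA-depleted libraries it had 2.54, 1.11 and 1.73 CPM in WT, 0.115, 0.0557 and 0.155 CPM in sg5 and 0.215, 0.335 and 0.482 CPM in sg6 libraries. No KO library reached the WT range in either kind, with sg5 libraries 2 and 3 lowest in polyA. The log2 fold changes were -2.31 ± 0.40 (SE, adjusted p = 0.0031) in sg5 and -1.45 ± 0.40 (SE, adjusted p = 0.022) in sg6 in polyA, and -3.92 ± 0.52 (SE, adjusted p = 0.00053) and -2.36 ± 0.44 (SE, adjusted p = 0.0082) in rRNA-depleted libraries. The sg6 call ended without WT library 3, sg6 library 1 or sg6 library 2 in polyA (adjusted p 0.0036 to 0.078 over 9 fits that each left out 1 library) and without WT library 1 in rRNA-depleted libraries (0.0059 to 0.055). *Mx1*, a dynamin-like GTPase that blocks virus replication, had 1.61, 2.15 and 5.40 CPM in WT, 1.33, 1.21 and 1.05 CPM in sg5 and 0.976, 1.24 and 1.44 CPM in sg6 libraries in polyA. In rRNA-depleted libraries *Mx1* had 1.75, 0.885 and 1.70 CPM in WT, 0.115, 0 and 0.0773 CPM in sg5 and 0.0431, 0 and 0 CPM in sg6 libraries. The polyA groups were close together, with the highest KO library just under the lowest WT library, whereas the rRNA-depleted groups stood well apart. *Mx1* changed by -1.35 ± 0.40 (SE, adjusted p = 0.032) and -1.33 ± 0.41 (SE, adjusted p = 0.034) in polyA and by -4.27 ± 0.66 (SE, adjusted p = 0.0017) in rRNA-depleted sg5. The rRNA-depleted sg6 libraries held 1 *Mx1* count against 125 in those of WT, a ratio of 106-fold with a 95% counting interval of 18.7-fold to 4223-fold (edgeR adjusted p = 0.00050). Its polyA call ended in at least 1 clone for 7 of the 9 libraries left out, all but WT libraries 1 and 2 (adjusted p 0.010 to 0.093 in sg5 and 0.010 to 0.10 in sg6). Its relative *Mx2* was lower in polyA sg6 alone (-3.02 ± 0.76 (SE, adjusted p = 0.015)), with -1.54 ± 0.68 (SE, adjusted p = 0.13) in sg5. That call ended without sg6 library 1 or 2 (adjusted p 0.011 to 0.059). RefSeq lists *Mx1*, *Mx2* and *Oas1b* of the reference strain as transcribed pseudogenes.

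The oligoadenylate synthetases, enzymes on chromosome 5 that sense double-stranded RNA and switch on RNase L, had medians of -1.19 (sg5) and -3.05 (sg6) on the log2 scale over the 7 members measured in polyA. Of these, *Oas1a*, *Oas1g*, *Oas2* and *Oasl2* were lower in both clones in polyA. *Oas1a* had 1.33, 1.84 and 1.89 CPM in WT, 0.934, 0.624 and 0.691 CPM in sg5 and 0.192, 0.241 and 0.178 CPM in sg6 libraries in polyA, and 2.89, 1.11 and 1.87 CPM in WT, 0.115, 0.0557 and 0 CPM in sg5 and 0.0431, 0.0745 and 0.175 CPM in sg6 libraries in rRNA-depleted libraries. The polyA groups formed 3 steps, with sg6 lowest and sg5 between it and WT. Its log2 fold changes were -1.19 ± 0.22 (SE, adjusted p = 0.0043) and -3.05 ± 0.27 (SE, adjusted p = 5.5e-05) in polyA, and -4.97 ± 0.70 (SE, adjusted p = 0.00073) and -4.27 ± 0.63 (SE, adjusted p = 0.0013) in rRNA-depleted libraries. *Oas1g*, a close copy of *Oas1a*, had 0.454, 0.275 and 0.467 CPM in WT, 0.0695, 0.0393 and 0.0123 CPM in sg5 and 0, 0 and 0.0178 CPM in sg6 libraries in polyA. In rRNA-depleted libraries *Oas1g* had 1.71, 0.406 and 0.724 CPM in WT, 0.0385, 0.111 and 0.0773 CPM in sg5 and 0, 0 and 0 CPM in sg6 libraries. Reads of *Oas1g* were nearly absent from sg6, with 1 count in its 3 polyA libraries against 58 in WT (67.1-fold, 95% counting interval 11.6-fold to 2694-fold) and 0 in its rRNA-depleted libraries, where it was at least 23-fold lower, set against a floor of 3 counts over the group. The sg5 changes were -3.22 ± 0.52 (SE, adjusted p = 0.0020) and -3.60 ± 0.80 (SE, adjusted p = 0.025), and the adjusted p values in sg6 were 0.0012 and 0.0042. Of the 31-base words in *Oas1a* transcripts, 68.8% also occurred in other genes, mainly *Oas1g*, so reads could be split between them and the separate values are uncertain. *Oas2* had 1.54, 4.52 and 6.54 CPM in WT, 1.21, 0.824 and 0.808 CPM in sg5 and 0.281, 0.289 and 0.373 CPM in sg6 libraries in polyA. In rRNA-depleted libraries *Oas2* had 1.40, 0.627 and 1.06 CPM in WT, 0.231, 0.0557 and 0 CPM in sg5 and 0.0431, 0 and 0 CPM in sg6 libraries. WT and KO libraries did not overlap in either kind. *Oas2* changed by -2.17 ± 0.43 (SE, adjusted p = 0.0059) and -3.76 ± 0.50 (SE, adjusted p = 0.00059) in polyA and by -3.31 ± 0.78 (SE, adjusted p = 0.027) in rRNA-depleted sg5, while the rRNA-depleted sg6 libraries held 1 count against 87 in WT, a ratio of 73.8-fold (95% counting interval 12.9-fold to 2949-fold; adjusted p = 0.0052). *Oasl2*, a synthetase-like gene, had 2.69, 3.17 and 6.43 CPM in WT, 1.91, 0.602 and 0.894 CPM in sg5 and 0.163, 0.337 and 0.462 CPM in sg6 libraries in polyA, with log2 fold changes of -1.86 ± 0.50 (SE, adjusted p = 0.022) and -3.69 ± 0.58 (SE, adjusted p = 0.0014). WT library 3 was the highest and sg6 lay below sg5 throughout. The sg5 call of *Oasl2* ended without WT library 3 or sg5 library 2 or 3 (adjusted p 0.0081 to 0.074). In rRNA-depleted libraries the sg5 call of *Oas1g* ended in 5 of the 9 fits, without WT library 1 or 3 or any sg5 library (adjusted p 0.013 to 0.25), and its sg6 call without WT library 1 (0.0015 to 0.062). The sg5 call of *Oas2* ended there without WT library 1 or 3 or sg5 library 2 or 3 (0.0056 to 0.15). *Oas1b* was lower in polyA sg6 (-1.23 ± 0.31 (SE, adjusted p = 0.016)), a call that ended without WT library 3 or sg6 library 2 (adjusted p 0.0035 to 0.056). *Oas3* and *Oasl1* had polyA log2 fold changes between -0.32 and 0.22.

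The IFIT genes on chromosome 19, whose products bind foreign RNA and the translation machinery, did not move together. *Ifit1* had 11.6, 15.5 and 47.3 CPM in WT, 23.2, 5.83 and 8.52 CPM in sg5 and 2.71, 2.88 and 5.22 CPM in sg6 libraries in polyA. In rRNA-depleted libraries *Ifit1* had 19.8, 6.34 and 21 CPM in WT, 5.73, 1.62 and 1.58 CPM in sg5 and 3.27, 1.12 and 1.8 CPM in sg6 libraries. The polyA sg5 libraries overlapped WT and the sg6 libraries were below both, whereas in rRNA-depleted libraries both clones lay wholly below WT. *Ifit1* changed by -2.79 ± 0.67 (SE, adjusted p = 0.013) in polyA sg6 and by -2.38 ± 0.55 (SE, adjusted p = 0.026) and -2.93 ± 0.57 (SE, adjusted p = 0.011) in rRNA-depleted libraries, and its polyA sg5 value was -0.99 ± 0.62 (SE, adjusted p = 0.27). The polyA sg6 call ended without sg6 library 2 (adjusted p 0.0060 to 0.050). Both rRNA-depleted calls ended without WT library 1 or 3, the sg5 call also without sg5 library 2 or 3 and the sg6 call without sg6 library 3 (0.0010 to 0.12 in sg5 and 0.00042 to 0.062 in sg6). *Ifit2*, *Ifit3* and *Ifit3b* were called in no comparison, with log2 fold changes between -0.27 and 0.33 over both clones and both kinds. Of the 31-base words in *Ifit3* and *Ifit3b* transcripts, 61.8% and 55.2% also occurred in other genes, mainly each other. Reads could be split between these 2, so their values are not independent.

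The interferon-inducible GTPases, which attack vacuoles that hold intracellular pathogens, had medians of -1.92 (sg5) and -3.14 (sg6) over the 6 members measured in polyA. *Gbp2* had 11.6, 16.8 and 29.9 CPM in WT, 3.64, 1.79 and 2.42 CPM in sg5 and 1.15, 1.69 and 2.68 CPM in sg6 libraries in polyA. In rRNA-depleted libraries *Gbp2* had 10.6, 4.79 and 12.9 CPM in WT, 1.15, 0.669 and 0.502 CPM in sg5 and 1.34, 0.671 and 0.701 CPM in sg6 libraries. Both clones lay far below WT in both kinds, with changes of -2.90 ± 0.43 (SE, adjusted p = 0.0013) and -3.41 ± 0.45 (SE, adjusted p = 0.00058) in polyA and -3.59 ± 0.44 (SE, adjusted p = 0.00030) and -3.38 ± 0.43 (SE, adjusted p = 0.00044) in rRNA-depleted libraries. *Gbp7* had 14.6, 20.7 and 32.6 CPM in WT, 6.57, 3.45 and 3.86 CPM in sg5 and 1.83, 2.67 and 3.57 CPM in sg6 libraries in polyA, and 8.98, 4.54 and 10.00 CPM in WT, 0.770, 0.557 and 0.696 CPM in sg5 and 1.25, 0.410 and 0.175 CPM in sg6 libraries in rRNA-depleted libraries. It followed the same order, with changes of -2.29 ± 0.36 (SE, adjusted p = 0.0019) and -3.08 ± 0.38 (SE, adjusted p = 0.00044) in polyA and -3.52 ± 0.51 (SE, adjusted p = 0.0011) and -3.68 ± 0.51 (SE, adjusted p = 0.00092) in rRNA-depleted libraries. *Gbp3* had 5.10, 7.92 and 16.7 CPM in WT, 4.37, 1.33 and 1.97 CPM in sg5 and 0.917, 1.11 and 1.21 CPM in sg6 libraries in polyA. In rRNA-depleted libraries *Gbp3* had 7.27, 2.03 and 6.68 CPM in WT, 2.85, 0.669 and 0.657 CPM in sg5 and 2.50, 0.559 and 0.570 CPM in sg6 libraries. Its polyA groups did not overlap, but rRNA-depleted WT library 2 fell among the KO values. *Gbp3* changed by -1.96 ± 0.50 (SE, adjusted p = 0.019) and -3.21 ± 0.55 (SE, adjusted p = 0.0023) in polyA, and its rRNA-depleted values were -1.91 ± 0.67 (SE, adjusted p = 0.15) and -2.14 ± 0.68 (SE, adjusted p = 0.14). The polyA sg5 call ended without WT library 3 or sg5 library 2 or 3 (adjusted p 0.0067 to 0.067). In rRNA-depleted libraries *Gbp3* passed the threshold in both clones without sg5 library 1, and in sg6 also without sg6 library 1 (0.018 to 0.36 in sg5 and 0.021 to 0.41 in sg6). The immunity-related GTPases *Igtp* and *Iigp1* were lower in polyA sg6 (-1.30 ± 0.27 (SE, adjusted p = 0.0057) and -4.40 ± 0.84 (SE, adjusted p = 0.0040)), and *Iigp1* also in rRNA-depleted sg6 (-3.70 ± 0.89 (SE, adjusted p = 0.038)). The rRNA-depleted call of *Iigp1* ended without WT library 1 or 3 or sg6 library 2 or 3 (adjusted p 0.0016 to 0.15). In sg5 *Iigp1* passed the threshold in polyA without sg5 library 1 (0.0052 to 0.26). *Irgm1*, of the same family, had log2 fold changes between -0.24 and 0.08.

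The PYHIN genes encode nuclear proteins that bind DNA. *Ifi203* had 45.6, 52.7 and 66.6 CPM in WT, 20.8, 22.1 and 23.8 CPM in sg5 and 9.94, 19.9 and 20.2 CPM in sg6 libraries in polyA, and 32.8, 25.1 and 38.4 CPM in WT, 5.93, 3.84 and 3.94 CPM in sg5 and 7.80, 6.48 and 5.43 CPM in sg6 libraries in rRNA-depleted libraries. Each WT library was above all KO libraries in both kinds. *Ifi203* changed by -1.31 ± 0.25 (SE, adjusted p = 0.0049) and -1.72 ± 0.25 (SE, adjusted p = 0.0011) in polyA and by -2.81 ± 0.24 (SE, adjusted p = 1.7e-05) and -2.29 ± 0.23 (SE, adjusted p = 8.1e-05) in rRNA-depleted libraries. *Ifi204*, a sensor of cytosolic and nuclear DNA, had 20.4, 19.2 and 19.4 CPM in WT, 11.7, 17.5 and 14.4 CPM in sg5 and 9.63, 12.3 and 9.43 CPM in sg6 libraries in polyA. In rRNA-depleted libraries *Ifi204* had 36.3, 33.8 and 30.9 CPM in WT, 9.35, 11.4 and 13.6 CPM in sg5 and 13.1, 22.7 and 14.3 CPM in sg6 libraries. Again no KO library reached WT. Its polyA values of -0.44 ± 0.16 (SE, adjusted p = 0.068) and -0.91 ± 0.16 (SE, adjusted p = 0.0026) were smaller than the fold threshold, and it changed by -1.56 ± 0.22 (SE, adjusted p = 0.00097) and -1.01 ± 0.22 (SE, adjusted p = 0.020) in rRNA-depleted libraries. The rRNA-depleted sg6 value sits on the threshold, and 8 of the 9 fits that left out 1 library, all but that without sg6 library 2, ended the call (log2 fold change -1.28 to -0.83, adjusted p 0.0047 to 0.17).

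Of the other effectors, *Parp14*, *Trim30a*, *Ifi44* and *Cxcl10* were lower in both clones in 1 or both kinds. *Parp14*, which attaches ADP-ribose to proteins, had 21.6, 26.2 and 32.9 CPM in WT, 11.9, 9.24 and 9.96 CPM in sg5 and 7.77, 9.34 and 10.1 CPM in sg6 libraries in polyA, and 14.8, 10.8 and 14.1 CPM in WT, 3.85, 3.01 and 2.63 CPM in sg5 and 5.51, 2.79 and 4.86 CPM in sg6 libraries in rRNA-depleted libraries. Its groups were separate in both kinds, with changes of -1.38 ± 0.17 (SE, adjusted p = 0.00052) and -1.57 ± 0.18 (SE, adjusted p = 0.00023) in polyA and -2.06 ± 0.27 (SE, adjusted p = 0.00060) and -1.59 ± 0.27 (SE, adjusted p = 0.0041) in rRNA-depleted libraries. *Trim30a*, a TRIM protein that restrains inflammatory signalling, had 25.1, 29.6 and 34 CPM in WT, 21.8, 12.7 and 12.4 CPM in sg5 and 3.76, 4.93 and 5.10 CPM in sg6 libraries in polyA. In rRNA-depleted libraries *Trim30a* had 43.1, 23.4 and 34.9 CPM in WT, 7.39, 4.12 and 5.18 CPM in sg5 and 4.39, 3.39 and 4.21 CPM in sg6 libraries. The polyA sg5 libraries lay between WT and sg6. *Trim30a* changed by -2.69 ± 0.25 (SE, adjusted p = 7.7e-05) in polyA sg6, -2.59 ± 0.26 (SE, adjusted p = 7.1e-05) in rRNA-depleted sg5 and -3.08 ± 0.27 (SE, adjusted p = 2.3e-05) in rRNA-depleted sg6, and its polyA sg5 value of -0.92 ± 0.23 (SE, adjusted p = 0.017) was under the fold threshold. *Ifi44*, a classic interferon-induced gene, had 2.76, 3.84 and 9.72 CPM in WT, 3.40, 1.28 and 1.54 CPM in sg5 and 0.429, 0.514 and 0.408 CPM in sg6 libraries in polyA. In rRNA-depleted libraries *Ifi44* had 2.80, 1.44 and 3.48 CPM in WT, 0.462, 0.390 and 0.734 CPM in sg5 and 0.258, 0.224 and 0.307 CPM in sg6 libraries. Only sg5 library 1 of polyA overlapped WT. *Ifi44* changed by -3.59 ± 0.57 (SE, adjusted p = 0.0015) in polyA sg6, with -1.40 ± 0.49 (SE, adjusted p = 0.063) in sg5, and by -2.26 ± 0.40 (SE, adjusted p = 0.0048) and -3.28 ± 0.44 (SE, adjusted p = 0.00060) in rRNA-depleted libraries. In polyA sg5 it passed the threshold without WT library 1 or sg5 library 1 (adjusted p 0.023 to 0.25), as *Trim30a* did (0.0017 to 0.065). *Cxcl10*, a chemokine that attracts T cells, had 0.419, 0.400 and 0.912 CPM in WT, 0.158, 0.0480 and 0.0432 CPM in sg5 and 0.104, 0.0321 and 0.0178 CPM in sg6 libraries in polyA, with changes of -2.81 ± 0.59 (SE, adjusted p = 0.0073) and -3.40 ± 0.73 (SE, adjusted p = 0.0070). These levels are near the floor, and *Cxcl10* overlaps Art3 on the opposite strand, whose reads cannot be told apart without strand.

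*Bst2*, or tetherin, which holds budding virus at the cell surface, went the other way in 1 clone. It had 5.90, 6.33 and 9.34 CPM in WT, 16.3, 16.1 and 16.1 CPM in sg5 and 6.18, 8.13 and 8.08 CPM in sg6 libraries in polyA. In rRNA-depleted libraries *Bst2* had 8.41, 5.31 and 6.99 CPM in WT, 21.8, 11.3 and 10.2 CPM in sg5 and 10.6, 4.66 and 5.96 CPM in sg6 libraries. All polyA sg5 libraries were above all WT and sg6 libraries, and sg6 overlapped WT. The polyA changes were 1.17 ± 0.18 (SE, adjusted p = 0.0017) in sg5 and 0.05 ± 0.18 (SE, adjusted p = 0.86) in sg6, and the rRNA-depleted values were 1.07 ± 0.34 (SE, adjusted p = 0.11) and 0.04 ± 0.34 (SE, adjusted p = 0.98). The rRNA-depleted sg5 value passed the threshold only without sg6 library 1 among the 9 fits (adjusted p 0.048 to 0.34). *Ifi27* had values of 0.39 ± 0.13 (SE, adjusted p = 0.055) and 0.64 ± 0.13 (SE, adjusted p = 0.0061) in polyA, under the fold threshold. *Samhd1*, which degrades nucleotides needed by retroviruses, had log2 fold changes between 0.03 and 0.18 over all 4 comparisons with WT. *Rsad2* (viperin) had 0.10 ± 0.51 (SE, adjusted p = 0.91) and -0.63 ± 0.57 (SE, adjusted p = 0.44) in polyA, where *Ifi35* had -0.50 ± 0.10 (SE, adjusted p = 0.0052) and -0.45 ± 0.10 (SE, adjusted p = 0.0077). *Rtp4* and *Xaf1* were called in no comparison, with log2 fold changes between -1.26 and -0.08 against WT. In rRNA-depleted libraries *Xaf1* passed the threshold in both clones without WT library 2 (adjusted p 0.010 to 0.26 in sg5 and 0.011 to 0.35 in sg6), as *Rtp4* did in sg6 without that library or sg5 library 1 (0.028 to 0.35).

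**Figure D2:**
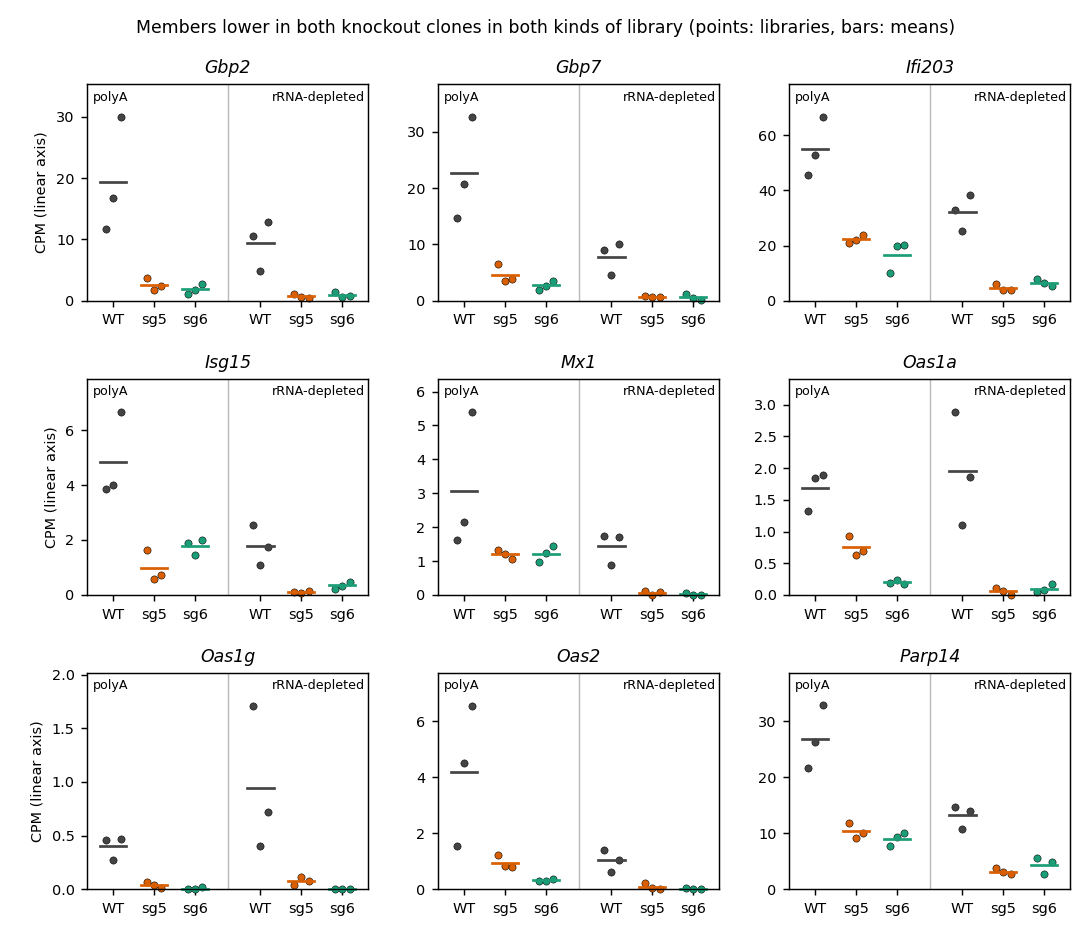
CPM on a linear axis in each library for the 9 members lower in both clones in both kinds, by line and kind, with points for libraries and bars for group means. In all 9 genes the KO points of a kind lie below its WT points, closest for *Mx1* in polyA, where the highest is 1.44 and the lowest WT library 1.61.

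Of the 5 signalling genes, *Irf1* and *Usp18* were lower in at least 1 clone in both kinds, and *Irf7*, *Irf9* and *Stat2* were called in no comparison with WT. *Irf1*, a transcription factor induced by interferon, had 35.1, 37 and 42.7 CPM in WT, 21.2, 17.6 and 17.7 CPM in sg5 and 18.9, 18.9 and 19.4 CPM in sg6 libraries in polyA. In rRNA-depleted libraries *Irf1* had 46, 38.5 and 38.5 CPM in WT, 28.6, 11.8 and 11.3 CPM in sg5 and 27.7, 15.8 and 19 CPM in sg6 libraries. The KO libraries lay below the WT range in both kinds. *Irf1* changed by -1.02 ± 0.11 (SE, adjusted p = 0.00017) and -1.01 ± 0.11 (SE, adjusted p = 0.00017) in polyA and by -1.25 ± 0.32 (SE, adjusted p = 0.043) in rRNA-depleted sg5, with -0.98 ± 0.31 (SE, adjusted p = 0.15) in sg6. Both polyA values sit on the fold threshold, and the sg5 call ended without WT library 3 or sg5 library 2 or 3 (log2 fold change -1.12 to -0.93 over the 9 fits) and the sg6 call without WT library 3 (-1.06 to -0.92). In rRNA-depleted libraries the sg5 call ended in 6 of the 9 fits, without any 1 of the WT libraries, sg5 library 2 or 3 or sg6 library 3 (adjusted p 0.00026 to 0.19). *Usp18*, the protease that removes ISG15 and dampens receptor signalling, had 1.50, 1.82 and 5.36 CPM in WT, 4.07, 1.08 and 1.40 CPM in sg5 and 0.607, 0.627 and 0.764 CPM in sg6 libraries in polyA. In rRNA-depleted libraries *Usp18* had 6.44, 1.99 and 4.04 CPM in WT, 2.50, 0.836 and 1.16 CPM in sg5 and 1.29, 0.708 and 0.482 CPM in sg6 libraries. The sg5 libraries overlapped WT in both kinds, and the sg6 libraries were below WT. *Usp18* changed by -2.12 ± 0.63 (SE, adjusted p = 0.031) and -2.32 ± 0.51 (SE, adjusted p = 0.024) in sg6, with -0.41 ± 0.57 (SE, adjusted p = 0.64) and -1.44 ± 0.48 (SE, adjusted p = 0.13) in sg5. Each sg6 call ended in 4 of the 9 fits, without WT library 3 or any sg6 library in polyA (adjusted p 0.011 to 0.11) and without WT library 1 or 3 or sg6 library 2 or 3 in rRNA-depleted libraries (0.0056 to 0.13). In rRNA-depleted sg5 it passed the threshold without sg5 library 1 (0.037 to 0.42).

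The 3 other signalling genes showed no call against WT. *Irf7*, the factor that amplifies type I interferon, had 3.32, 3.86 and 7.05 CPM in WT, 5.64, 3.36 and 4.21 CPM in sg5 and 2.71, 2.76 and 3.34 CPM in sg6 libraries in polyA. In rRNA-depleted libraries *Irf7* had 2.50, 1.14 and 3.23 CPM in WT, 2.62, 1.06 and 1.58 CPM in sg5 and 1.55, 1.34 and 1.88 CPM in sg6 libraries. The lines overlapped in both kinds, and the largest value was -0.69 ± 0.30 (SE, adjusted p = 0.11) in polyA sg6. *Irf9*, the DNA-binding partner of STAT2, had 21.8, 26.2 and 37.1 CPM in WT, 37.9, 33.2 and 39.3 CPM in sg5 and 31.8, 33.8 and 37 CPM in sg6 libraries in polyA. In rRNA-depleted libraries *Irf9* had 32.1, 13.7 and 28.9 CPM in WT, 41.7, 30.03 and 27.7 CPM in sg5 and 33.9, 17.2 and 26.3 CPM in sg6 libraries. The KO libraries overlapped WT in both kinds, with values from 0.05 to 0.41 on the log2 scale over the 4 comparisons. *Stat2* had 82.4, 83 and 95.8 CPM in WT, 116, 93.9 and 97 CPM in sg5 and 68.7, 73.3 and 75.1 CPM in sg6 libraries in polyA, and 17.1, 12.2 and 16.5 CPM in WT, 24.4, 26 and 18.4 CPM in sg5 and 20.2, 10.1 and 14 CPM in sg6 libraries in rRNA-depleted libraries. Its sg5 libraries reached the highest levels of each kind, but the values against WT (0.23 ± 0.10 (SE, adjusted p = 0.12) and 0.59 ± 0.24 (SE, adjusted p = 0.23)) did not pass the test.

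Among the MHC class I genes, *Psmb8* and *Psmb9*, immunoproteasome subunits, and *Tap1*, a chain of the peptide transporter, supply peptides. *Psmb9* and *Tap1* were lower in both clones in polyA. With all libraries in the fit, both were lower in rRNA-depleted sg6 with the replicate block and not without it. *Psmb9* had 3.53, 4.42 and 5.78 CPM in WT, 1.41, 0.619 and 1.21 CPM in sg5 and 0.518, 0.129 and 0.373 CPM in sg6 libraries in polyA. In rRNA-depleted libraries *Psmb9* had 6.35, 1.33 and 3.40 CPM in WT, 5.12, 0.947 and 0.734 CPM in sg5 and 0.862, 0.224 and 0.219 CPM in sg6 libraries. The polyA groups did not overlap, but in rRNA-depleted libraries sg5 library 1 stood above WT libraries 2 and 3. *Psmb9* changed by -2.09 ± 0.41 (SE, adjusted p = 0.0058) and -3.74 ± 0.48 (SE, adjusted p = 0.00049) in polyA, with -0.68 ± 0.69 (SE, adjusted p = 0.69) and -3.08 ± 0.81 (SE, adjusted p = 0.061) in rRNA-depleted libraries. The last of these passed the threshold in 5 of the 9 fits, without WT library 2, any sg5 library or sg6 library 1 (adjusted p 0.0046 to 0.24). *Tap1* had 16.7, 19.2 and 26 CPM in WT, 12.5, 7.80 and 9.41 CPM in sg5 and 5.27, 5.37 and 7.17 CPM in sg6 libraries in polyA. In rRNA-depleted libraries *Tap1* had 6.74, 3.28 and 5.26 CPM in WT, 7.23, 2.62 and 1.70 CPM in sg5 and 3.36, 1.12 and 1.23 CPM in sg6 libraries. Its polyA changes were -1.06 ± 0.22 (SE, adjusted p = 0.0075) and -1.80 ± 0.23 (SE, adjusted p = 0.00049), and its rRNA-depleted values were -0.39 ± 0.51 (SE, adjusted p = 0.77) and -1.42 ± 0.53 (SE, adjusted p = 0.24). The polyA sg5 call of *Tap1* ended without WT library 3 or sg5 library 2 (log2 fold change -1.26 to -0.86, adjusted p 0.0053 to 0.030). *Psmb9* and *Tap1* overlap on opposite strands on chromosome 17, and their reads may not be separable without strand. *Psmb8* had 1.08, 0.709 and 0.667 CPM in WT, 0.644, 0.297 and 0.426 CPM in sg5 and 0.266, 0.225 and 0.213 CPM in sg6 libraries in polyA, and 0.744, 0.147 and 0.278 CPM in WT, 1.85, 0.0557 and 0.271 CPM in sg5 and 0.732, 0.149 and 0.219 CPM in sg6 libraries in rRNA-depleted libraries. It was lower in polyA sg6 (-1.76 ± 0.36 (SE, adjusted p = 0.0056)), with -0.82 ± 0.31 (SE, adjusted p = 0.082) in sg5, where it passed the threshold without sg5 library 1 (adjusted p 0.024 to 0.22). The rRNA-depleted values of *Psmb8* were 0.98 ± 0.90 (SE, adjusted p = 0.64) and -0.06 ± 0.97 (SE, adjusted p = 0.99), with library 1 highest in each line.

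The class I heavy chains *H2-K1* and *H2-D1* had log2 fold changes between -1.12 and -0.67 over the 4 comparisons with WT. *H2-K1* had 26.9, 22.3 and 25.9 CPM in WT, 14, 12.2 and 12.9 CPM in sg5 and 12.6, 15.1 and 14.1 CPM in sg6 libraries in polyA, and 23, 17.3 and 18.9 CPM in WT, 11.2, 8.02 and 7.96 CPM in sg5 and 11.2, 10.4 and 9.90 CPM in sg6 libraries in rRNA-depleted libraries. *H2-D1* had 24.7, 24.3 and 23.6 CPM in WT, 12.2, 12.6 and 13.2 CPM in sg5 and 13.2, 14.1 and 13.9 CPM in sg6 libraries in polyA, and 32.8, 23 and 24.5 CPM in WT, 14.9, 12.2 and 13 CPM in sg5 and 15.8, 17.3 and 17.4 CPM in sg6 libraries in rRNA-depleted libraries. For both genes the KO and WT libraries did not overlap in either kind. In polyA the changes passed the test of the adjusted p but stayed within the fold threshold, at -0.94 ± 0.11 (SE, adjusted p = 0.00036) and -0.84 ± 0.11 (SE, adjusted p = 0.00059) for *H2-K1* and -0.93 ± 0.08 (SE, adjusted p = 6.2e-05) and -0.82 ± 0.08 (SE, adjusted p = 0.00011) for *H2-D1*. In rRNA-depleted sg5 libraries both were lower, at -1.12 ± 0.19 (SE, adjusted p = 0.0041) and -1.0 ± 0.18 (SE, adjusted p = 0.0049), and in sg6 the values were -0.91 ± 0.19 (SE, adjusted p = 0.019) and -0.67 ± 0.17 (SE, adjusted p = 0.060). These calls sit near the fold threshold: that of *H2-K1* ended without WT library 1 or sg5 library 2 (log2 fold change -1.27 to -0.94) and that of *H2-D1* with the replicate block and in 6 of the 9 fits, without WT library 1, sg5 library 2 or 3 or any sg6 library (-1.09 to -0.77). In polyA sg5, *H2-K1* passed the threshold without WT library 2 (-1.03 to -0.88). *B2m*, the light chain shared by class I molecules, had 620.4, 619 and 678 CPM in WT, 925, 771 and 821 CPM in sg5 and 728, 685 and 864 CPM in sg6 libraries in polyA. In rRNA-depleted libraries *B2m* had 536, 387 and 423 CPM in WT, 734, 545 and 536 CPM in sg5 and 616, 440.0 and 461 CPM in sg6 libraries. All polyA KO libraries were above WT, with values of 0.39 ± 0.11 (SE, adjusted p = 0.027) and 0.25 ± 0.11 (SE, adjusted p = 0.12), under the fold threshold. The heavy chain genes belong to a family of near copies, with 22.8% of *H2-K1* and 26.7% of *H2-D1* words of 31 bases found in other genes, so part of their reads may be assigned among relatives.

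**Figure D3:**
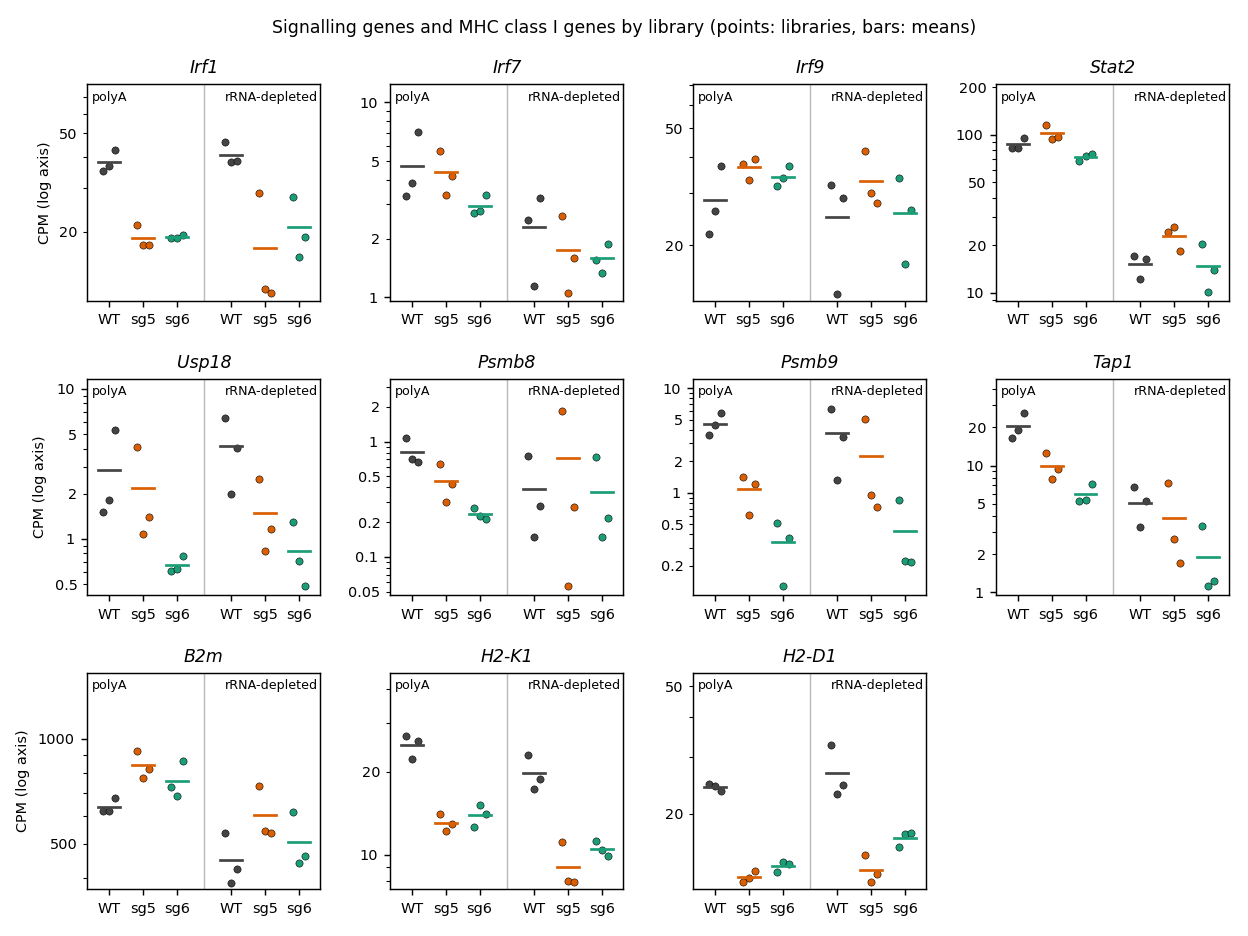
CPM on a log axis in each library for the 5 signalling and 6 MHC class I genes, by line and kind, with points for libraries and bars for group means. *Irf9* and *B2m* show no decrease in KO libraries, while *H2-K1* and *H2-D1* lie below WT in each KO library.

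Set side by side by role, the share lower in both clones was 12 of 33 effectors, 1 of 5 signalling genes (*Irf1*) and 2 of 6 class I genes (*Psmb9* and *Tap1*) in polyA. In rRNA-depleted libraries it was 13 of 28, 0 of 5 and 0 of 6. Of all genes tested, 5.48% were lower in both clones in polyA and 2.62% in rRNA-depleted libraries. At such shares 0 of 5 or 0 of 6 does not set a role apart from genes in general. The median log2 fold change of the effectors was -0.92 in sg5 and -1.33 in sg6 in polyA, and -1.79 and -1.87 in rRNA-depleted libraries. Signalling genes had medians of -0.11 and -0.69 in polyA and -0.38 and -0.53 in rRNA-depleted libraries. Class I genes had -0.94 and -1.30 in polyA and -0.54 and -0.79 in rRNA-depleted libraries. Over all genes tested the 4 medians lay between -0.006 and 0.08. In polyA the class I median was thus close to that of the effectors and the signalling median was smaller in size, whereas in rRNA-depleted libraries both were smaller than that of the effectors. The rRNA-depleted effector medians and the 13 of 28 include effectors that passed the filter through WT. With at least 10 counts in every library, these medians were -1.09 in sg5 and -1.07 in sg6 over 18 effectors. Differences between roles were not tested, and the smaller roles hold few genes. In rRNA-depleted sg5 the class I median ran from -1.15 to -0.03 as single libraries were left out, being closest to 0 without WT library 1 and farthest without sg5 library 1.

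**Figure D4:**
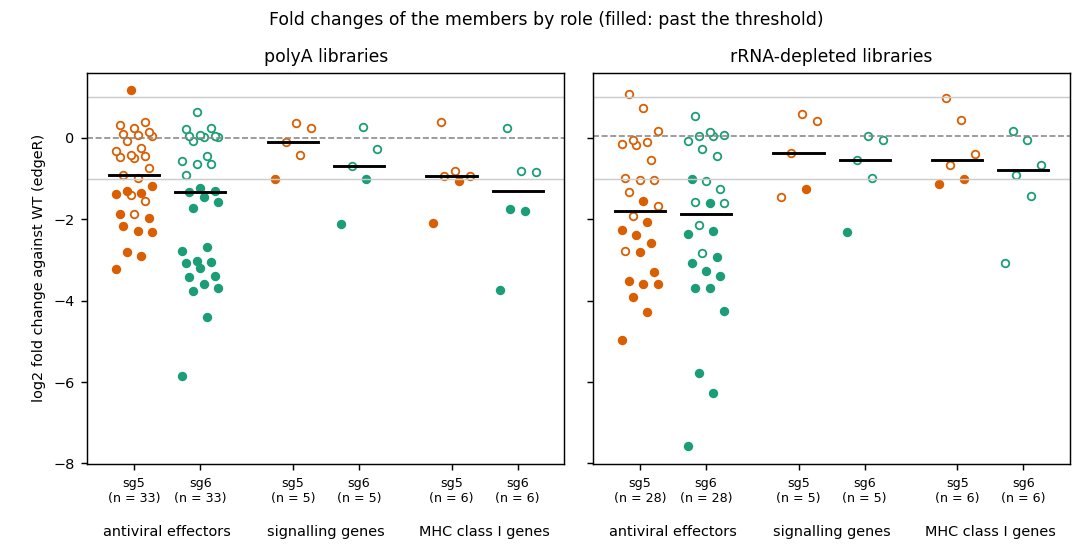
Log2 fold change against WT of each member tested, by role, in sg5 and sg6 and in both kinds of library, with points for genes (filled past the threshold) and bars for role medians. Effectors spread widely below 0, and the signalling medians are the closest to 0 in every panel.

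WT libraries differed more among themselves for these genes than for the median gene. The median SD of log2 CPM over the 3 WT libraries was 0.42 for the members and 0.21 for all genes tested in polyA, and 0.61 and 0.21 in rRNA-depleted libraries. Effectors had 0.53, signalling genes 0.39 and class I genes 0.24 in polyA, and 0.63, 0.67 and 0.39 in rRNA-depleted libraries. Between the highest and the lowest WT library the median fold was 2.10 for effectors in polyA, from 1.06 in *Ifi204* to 4.63 in *Mx2*. Most members were high in the same library. WT library 3 was the highest for 36 of the 44 members in polyA (81.8%, against 41.2% of all genes), and library 1 was the lowest for 33 (75.0%, against 39.3%). In rRNA-depleted libraries WT library 1 was the highest for 28 of 39 (71.8%, against 52.5% of all genes) and WT library 2 the lowest for 36 (92.3%, against 28.8%). Within sg5, library 1 was the highest for 34 of 44 members in polyA (77.3%, against 37.7%) and 32 of 39 in rRNA-depleted libraries (82.1%, against 39.4%). Within sg6 it was library 3 in polyA (31 of 44, 70.5% against 37.7%) and library 1 in rRNA-depleted libraries (31 of 39, 79.5% against 45.2%). Relative to the WT mean, the median effector of the polyA WT libraries was at -0.41, -0.10 and 0.55 on the log2 scale, that of sg5 at -0.37, -1.12 and -1.19 and that of sg6 at -1.43, -1.31 and -1.06. The median of sg5 library 1 thus lay between those of WT libraries 1 and 2. In rRNA-depleted libraries the effector medians were 0.37, -0.69 and 0.23 in WT, -1.06, -2.02 and -1.95 in sg5 and -1.30, -2.22 and -1.77 in sg6, all KO libraries being below all WT libraries. Without polyA WT library 3, 9 of the 15 members remained lower in both clones in polyA, the calls of *Isg15*, *Mx1*, *Oasl2*, *Irf1*, *Gbp3* and *Tap1* having ended in at least 1 clone. Without rRNA-depleted WT library 1 the number lower in both clones was 8, against 13 with it. Calls in both clones held whichever library was left out for *Oas1a*, *Oas1g*, *Oas2*, *Ifi203*, *Gbp2*, *Gbp7*, *Parp14*, *Cxcl10* and *Psmb9* in polyA, and for *Mx1*, *Oas1a*, *Ifi44*, *Ifi203*, *Gbp2*, *Gbp7*, *Parp14* and *Trim30a* in rRNA-depleted libraries. Of these, *Oas1g* and *Cxcl10* in polyA and *Mx1*, *Oas1a* and *Ifi44* in rRNA-depleted libraries passed the low-count filter with the help of WT.

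**Figure D5:**
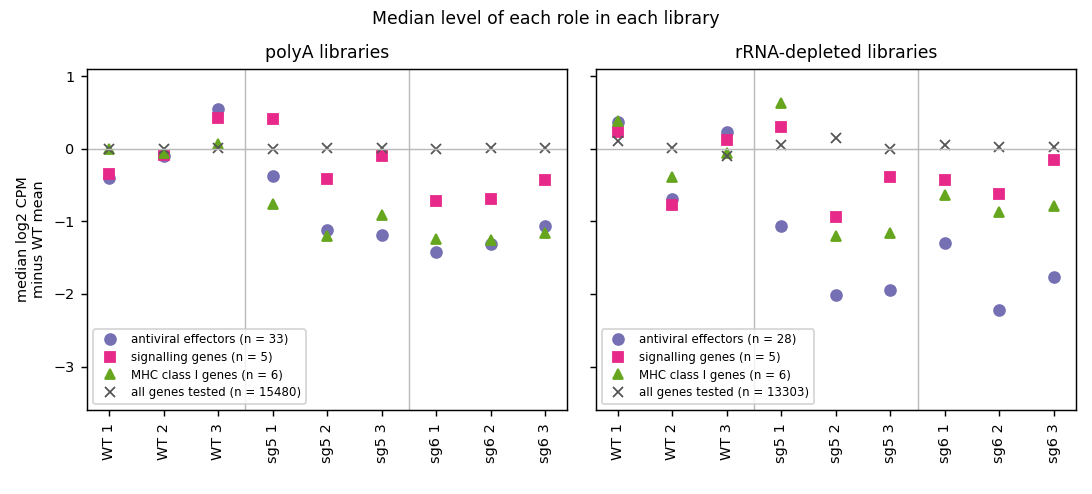
Median log2 CPM of each role relative to the WT mean, by library and kind, 1 point per library. In polyA the effector median of sg5 library 1, at -0.37, lies among the WT libraries, which run from -0.41 to 0.55.

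In polyA every sg6 library lay below every sg5 library for 18 of 44 members, where 11.7% of all genes did so. In rRNA-depleted libraries this held for 2 of 39, against 9.59%. In polyA 9 members were lower in sg6 and not in sg5 (*Ifi44*, *Ifit1*, *Igtp*, *Iigp1*, *Mx2*, *Oas1b*, *Psmb8*, *Trim30a* and *Usp18*), but a test of sg5 against sg6 called 3 higher in sg5 (1.36% of all genes; 17 members at an unadjusted p below 0.05, and 9 by DESeq2) and 0 lower (1.25% of all genes; 0 members at an unadjusted p below 0.05, and 0 by DESeq2). These were *Oas1a* (1.87 ± 0.26 (SE, adjusted p = 0.0036)), *Trim30a* (1.77 ± 0.24 (SE, adjusted p = 0.0031)) and *Bst2* (1.11 ± 0.18 (SE, adjusted p = 0.0077)), and with the replicate block also *Psmb9*. In rRNA-depleted libraries 0 members were higher (0.556% of all genes) and 0 lower (0.925%), with 5 and 3 at an unadjusted p below 0.05 and 0 and 0 by DESeq2, and with the block *Bst2* and *Psmb9* were higher in sg5. Over all genes the block raised those higher in sg5 from 74 to 136 there and from 211 to 269 in polyA.

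Genes around the pathway were read in the same fits. No interferon gene of 11 listed passed the filter in either kind. *Ifnb1* had at most 3 counts in any library, and the summed CPM of the list stayed below 0.38 in every library. Of 15 receptor and JAK-STAT genes tested in polyA, 0 were called lower or higher in either clone by edgeR or DESeq2. At an unadjusted p below 0.05, 1 was lower and 6 were higher in sg5, and 2 were lower and 3 higher in sg6. In rRNA-depleted libraries 1 of 16, the feedback inhibitor *Socs3*, was lower in sg5 (-1.21 ± 0.18), where 4.31% of all genes were. Among 35 other interferon-induced genes tested in polyA, 8 were lower in both clones, against 5.48% of all genes. They included *Gbp4* (-4.25 ± 0.65 and -6.21 ± 0.89), *Gbp9* (-3.62 ± 0.61 and -5.46 ± 0.71), the nuclear body genes *Sp100* (-2.48 ± 0.20 and -4.86 ± 0.23) and *Sp110* (-3.07 ± 0.31 and -3.92 ± 0.34), and *Uba7*, the activating enzyme for ISG15 (-1.40 ± 0.24 and -2.49 ± 0.25). The others were *Gbp6*, *Slfn2* and *Zbp1*, and the calls of *Zbp1* ended in 4 of the 9 fits in each clone. In rRNA-depleted libraries 6 of 30 were lower in both clones (2.62% of all genes), namely *Gbp4*, *Gbp6*, *Gbp9*, *Slfn2*, *Sp100* and *Sp110*, and leaving out WT library 3 ended those of *Gbp4*, *Gbp6* and *Slfn2*. Summed over the libraries of a line, *Gbp4* had 3 counts in sg5, 0 in sg6 and 98 in WT there. *Gbp9* had 3, 2 and 474 counts, and *Slfn2* had 1, 0 and 72. *Gbp4*, *Gbp9* and *Slfn2* thus passed the filter through WT and could be called only lower. *Slfn5* was higher in polyA sg5 (1.1 ± 0.33) and *Ly6e* in polyA sg6 (1.02 ± 0.31), calls that ended in 4 and 6 of the 9 fits that left out 1 library. Each was the 1 of 35 called higher, against 3.18% of all genes in sg5 and 3.64% in sg6. In rRNA-depleted libraries *Ly6e* was instead lower in sg5 than in WT, as were 9 of 30 listed genes and 4.31% of all genes. It was also lower there in sg5 than in sg6 (1 of 30, against 0.925% of all genes). Other class I genes lower in both clones in polyA were *Tap2* (-1.77 ± 0.29 and -2.69 ± 0.31), the partner of *Tap1*, and *H2-Q4* (-1.59 ± 0.15 and -1.53 ± 0.15), 2 of 15 against 5.48% of all genes. In rRNA-depleted libraries 1 of 15, *H2-Q4*, was, against 2.62%. *Nlrc5*, the transactivator of class I genes, was lower in polyA sg5 (-1.18 ± 0.20). Of 4 class II pathway genes tested in polyA, *Cd74* (-1.31 ± 0.30 and -1.09 ± 0.31) and *H2-DMb1* (-1.36 ± 0.29 and -2.39 ± 0.31) were lower in both clones, against 5.48% of all genes, the sg6 call of *Cd74* ending in 4 of the 9 fits. In rRNA-depleted libraries 0 of 3 were lower in both clones, against 2.62%, and *H2-DMb1* alone was lower in sg6 (3.59% of all genes). There 0 of 3 were higher in sg5 by edgeR (3.04% of all genes) and 1 by DESeq2. *Lyz2*, the immune marker named above, changed by -2.12 ± 0.27 and -1.54 ± 0.27 in polyA.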

How the data were processed

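RNA-seq counts of 18 libraries were analysed as 2 separate tables, polyA and rRNA-depleted, with 3 libraries of each of 3 lines in each. For polyA libraries the authors made estimated counts per gene with Salmon (0.8.2 in the labels' processing notes) on mm10 known genes and tximport, deposited as whole numbers. For rRNA-depleted libraries the authors made raw counts of genes and transposable element loci with STAR and TElocal on mm10, which shares out reads that align to several places. The strand setting is not given in the sources used here. Entrez identifiers were matched to RefSeq symbols for 24045 of 24100 genes.

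The members and gene lists were chosen with earlier results of these data known. Low counts were filtered with filterByExpr (minimum count 10), which left 15480 polyA genes and 13303 genes in the rRNA-depleted fit, where p-values were adjusted over 56086 genes and loci. Each table was fitted over its 3 lines with TMM scaling and the quasi-likelihood test of edgeR 4.0.16 (R 4.3.3), and p-values were adjusted by Benjamini-Hochberg. The threshold was an adjusted p below 0.05 with a log2 fold change over 1 in size. The scripts were tested on simulated data. Csf1r, Cd68, Thy1, Ly6a, Socs3, Slfn5, Ly6e and Nlrc5 were named after their values were seen, and other listed genes enter as counts or, where lower or higher in both clones, by name. Same-numbered libraries of each pair of lines were compared by the correlation of their deviations from the line means, with a minimum of 0.1 in every pair. Between sg5 and sg6 (0.28 to 0.37 in polyA, 0.17 to 0.64 in rRNA-depleted libraries) and between WT and sg6 in rRNA-depleted libraries (0.11 to 0.54) each pair passed, and values with the replicate block stand beside those results where it changed calls. No libraries were duplicates, as the lowest chi-square per gene between libraries of a line was 25.3. Values per library are given for members called in both clones in either kind and for the signalling and class I genes, and others are given by range or fold change. Counting intervals are exact (Clopper-Pearson) and, like the floor of 3 counts, cover counting error only. Alternatives were DESeq2 1.42.0 and its size factors, other filters and thresholds, thinned counts, a replicate block, only the groups compared, genes without transposable element loci, and each library left out. Of the 9 values that a fit without 1 library each gave, the lowest and highest are printed. Tables were normalized separately, so levels of the 2 kinds stand side by side without a test.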

Additional observations from a re-analysis of the deposited data

Results flagged for a closer look

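The clones differed from each other in 4 members by the direct test of sg5 against sg6 in polyA libraries, each of which had an adjusted p below 0.05 in edgeR's quasi-likelihood test. By the adjusted p alone, 327 of all 15480 genes were higher in sg5 than in sg6 and 414 were lower. So small a number of members does not set them apart from genes in general. Oas1a was 1.87 higher in sg5 on the log2 scale (adjusted p = 0.0036, 0.0037 to 0.021 as each library was left out), and each sg5 library was above each sg6 library. Its value in rRNA-depleted libraries was -0.70 (adjusted p = 0.90). Trim30a was 1.77 higher in sg5 (adjusted p = 0.0031, 0.0020 to 0.017), with each sg5 library above each sg6 library, and 0.48 in rRNA-depleted libraries (adjusted p = 0.69). Bst2 was 1.11 higher in sg5 (adjusted p = 0.0077, 0.0013 to 0.031) and 1.03 in rRNA-depleted libraries (adjusted p = 0.39), where the lines overlapped. Stat2 was 0.50 higher in sg5 (adjusted p = 0.022, 0.015 to 0.076), under the fold threshold, and 0.64 in rRNA-depleted libraries (adjusted p = 0.50).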

How the results depend on the processing

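No member changed direction where the reported value or its alternative was past the threshold, over 7234 values of single genes under single alternatives. Of these, 6816 kept their side of the threshold, 260 lost a call and 158 gained one. Testing against a log2 fold change of 1 itself left 4 polyA members lower in sg5, 15 in sg6 and 3 in both, 0 higher in sg5 and 0 higher in sg5 than in sg6, and 8, 9 and 6 lower in rRNA-depleted sg5, sg6 and both. Of all 15480 polyA genes, 521 were lower in sg5 and 594 in sg6 by this test, and 173 were higher in sg5. In rRNA-depleted libraries 310 and 269 of 13303 genes were lower. The share of all genes lower in both clones was not counted. The adjusted p alone gave 2 higher in polyA sg5 and 1 in sg6, where 2105 and 2491 of 15480 genes were. DESeq2 gave 9 polyA members higher in sg5 than in sg6 and 1 higher in rRNA-depleted sg5, and only the 2 lines compared gave 5 of the former. Of all genes DESeq2 gave 298 of 17974 and 574 of 15752, and only the 2 lines compared gave 224 of 15518. Without a filter 1 was higher in rRNA-depleted sg5 and 1 higher in sg5 than in sg6, where 624 and 195 of 18885 genes were. At least 10 counts in every library left 10, 7 and 6 members lower in rRNA-depleted sg5, sg6 and both, with effector medians of -1.09 and -1.07, and a polyA sg6 class I median of -0.86. Of all 11816 genes so left in rRNA-depleted libraries, 296 were lower in sg5 and 200 in sg6.

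Leaving out 1 library gave 9 to 18 polyA members lower in both clones, 0 to 1 lower and 3 to 5 higher in sg5 than in sg6, and signalling medians of -0.33 to 0.31 in sg5 and -0.88 to -0.30 in sg6, whose extremes nearest to or above 0 came without WT library 3. In rRNA-depleted libraries it gave 10 to 20 lower and 0 to 1 higher in sg5, 9 to 20 lower in sg6 and 8 to 16 in both, with sg5 medians of -2.47 to -1.51 for effectors and -1.15 to -0.030 for class I genes. The lowest counts came without WT library 1 and, for sg5, also without sg5 library 2. Chosen after seeing the data, leaving out polyA WT library 3 with sg5 library 1 gave 1 member lower in sg5 than in sg6, and leaving out library 1 of each rRNA-depleted line gave an sg5 class I median of -0.97. The ISRE core on the gene strand alone was in 28.6% of members and 5.15% of genes. The cause of these shifts was not tested.

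The labels do not say what a replicate number shares. Same-numbered libraries correlated above 0.1 in every pair between sg5 and sg6 in both kinds and between WT and sg6 in rRNA-depleted libraries, and not between WT and sg5 or, in polyA, WT and sg6 (lowest -0.23 and 0.098). Over all lines 15 of 18 and 12 of 18 comparisons of a library with another line were best with its own number. With a replicate block 1 member was higher in rRNA-depleted sg5, 2 were higher in sg5 than in sg6 and 18 were lower in both clones, the same 13 and 5 more (Gbp3, Igtp, Iigp1, Irf1 and Usp18), while the 15 polyA members lower in both clones were the same. Over all 13303 genes in rRNA-depleted libraries, those lower rose from 573 to 689 in sg5 and from 477 to 598 in sg6. Those higher in sg5 rose from 405 to 547 against WT and from 74 to 136 against sg6. The block ended the rRNA-depleted sg5 call of H2-D1 and added Psmb9 to the polyA members higher in sg5 than in sg6. Depth limits genes near 0 counts, and 1 clone per guide, 1 WT line and 3 libraries per line limit the rest.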
